A study of Mus musculus with 77 samples.

Results

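The regions described here are the 80-kb bins of the autosomes that were already replicated in nearly every mid-S cell of cloned mouse embryos at both the 4-cell and the 8-cell stage. They number 1061 of the 29620 autosomal bins that were called in enough cells, out of 30890 autosomal bins and 32973 bins in all. The members were chosen by their measured states: a bin had to be called in at least 12 4-cell and 20 8-cell mid-S cells, and replicated in at least 95% of the called cells at each stage. Mid-S cells are those with 30 to 70% of their called autosomal bins replicated, a share that the authors deposited for each cell as the Repliscore. The embryos are of the BDF1 strain, were made by somatic cell nuclear transfer (SCNT, the nucleus of a somatic cell placed in an oocyte without its own chromosomes) and were kept in culture. Single blastomeres were profiled by single-cell Repli-seq, which reads from DNA copy number which parts of a genome have been copied. The 4-cell group has 28 cells from 14 embryos and the 8-cell group has 49 from 12, with no embryos from fertilisation among them. The donor cell type is not given in the sources used here.

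DNA replication follows a timetable in which large neighbouring stretches of a chromosome are copied together. In most mammalian cells, early replication goes with open chromatin, many genes and active transcription, and late replication with compact, gene-poor chromatin at the nuclear edge. A bin that is replicated in every mid-S cell had been copied by that point of S phase in each of them. How soon it was copied is a separate question, taken up below with the early-S cells. Positions are given in mouse genome build mm9. The genes inside these bins were not analysed here, because no annotation of that build was used.

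Cells were sorted into early, mid and late S phase, and the embryo was the replicate. Mid-S comprised 18 cells from 9 4-cell embryos and 28 from 10 8-cell embryos. Early-S (Repliscore under 30) comprised 1 cell from 1 4-cell embryo and 6 from 4 8-cell embryos. Late-S (over 70) comprised 9 cells from 5 4-cell embryos and 15 from 8 8-cell embryos. The annotation gives each cell a batch code. The batch called earlier here holds 4-cell cells alone, 10 of the 18 mid-S ones among them. All other cells, whatever their code, are called the later batch. These names are labels, and the order of the batches in time was not checked. Read depth is unknown, and between 27057 and 29849 autosomal bins were called per cell. The 2 most alike cells differed in 0.0271% of their calls; both are late-S cells of 4-cell embryo 4 and enter as 1 embryo. Some cells hold runs of 30 Mb or more in a single state, unlike the mix of states along most chromosomes. An unreplicated run of that kind was present in 5 of the 18 4-cell and 11 of the 28 8-cell mid-S cells, and the number of members, their chromosomes, domain lengths and early-S and late-S levels are also given without the runs. The lists of single domains, the clusters and the borders are given with them alone.

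With so few cells, the threshold works in whole cells. At the 4-cell stage, 1 unreplicated cell of 18 leaves 94.4%, so all members were replicated in every 4-cell mid-S cell that called them. At the 8-cell stage, 1 unreplicated cell of 28 leaves 96.4% and is allowed, and 704 members had no unreplicated call while 357 had 1. Just outside the threshold lay 1501 bins that were early at the 8-cell stage and had 1 unreplicated call at the 4-cell stage. Another 266 bins were early at the 4-cell stage and had 2 unreplicated calls at the 8-cell stage. Members made up 3.58% of the bins kept. They were 60.9% of the 1742 bins that were early at the 4-cell stage and 22.7% of the 4669 bins that were early at the 8-cell stage. With calls in long runs left out of the rule, the shares were 72.2% of 3661 and 46.4% of 5701 bins.

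The members were spread unevenly over the autosomes. Chromosome 17 had the highest share, with 173 members or 15.1% of its kept bins. Chromosome 16 followed with 151 members (12.7%) and chromosome 5 with 221 members (12.1%). Together with the 133 members of chromosome 15, these chromosomes held 678 members, or 63.9% of all. The shares were 0 on 7 chromosomes, which are 1, 4, 8, 10, 11, 12 and 19, so the rule for the 3 lowest chromosomes ends in a tie. Chromosome 9 had 1 member, chromosome 13 had 7, chromosome 14 had 10 and chromosome 3 had 22. Each of the 7 chromosomes without a member carried a long unreplicated run in at least 1 mid-S cell of the 4-cell stage. Such runs also lay on chromosomes with members: on 3 and 5 in 1 cell each, and on 13 and 14 in 2 cells each. On the 7 chromosomes without a member 1849 bins, 65 to 394 on each, were early at the 8-cell stage. Chromosome 9 differed in this respect: 116 of its bins were early in 4-cell embryos and 2 in 8-cell embryos, where 2 mid-S cells carried a long unreplicated run on it. Chromosomes 2 and 7 also carried such a run in 2 8-cell mid-S cells each, and had 282 and 207 early bins at that stage. Chromosome 19 carried one in 4 of these cells and had 65.

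When the calls inside the long runs were left out, a choice made after seeing the data, 2643 bins met the rule, or 8.92% of those kept and 2.49 times as many. All 1061 members were among them. The highest share then lay on chromosome 11, with 367 bins or 24.7% where the rule gave none, followed by chromosome 5 (302 bins, 16.6%), chromosome 17 (173 bins, 15.1%) and chromosome 4 (256 bins, 13.8%). The counts of chromosomes 6, 15, 16, 17 and 18 did not move. The distribution over chromosomes is thus a description of these cells, and the origin of the long runs was not tested.

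**Figure D1:**
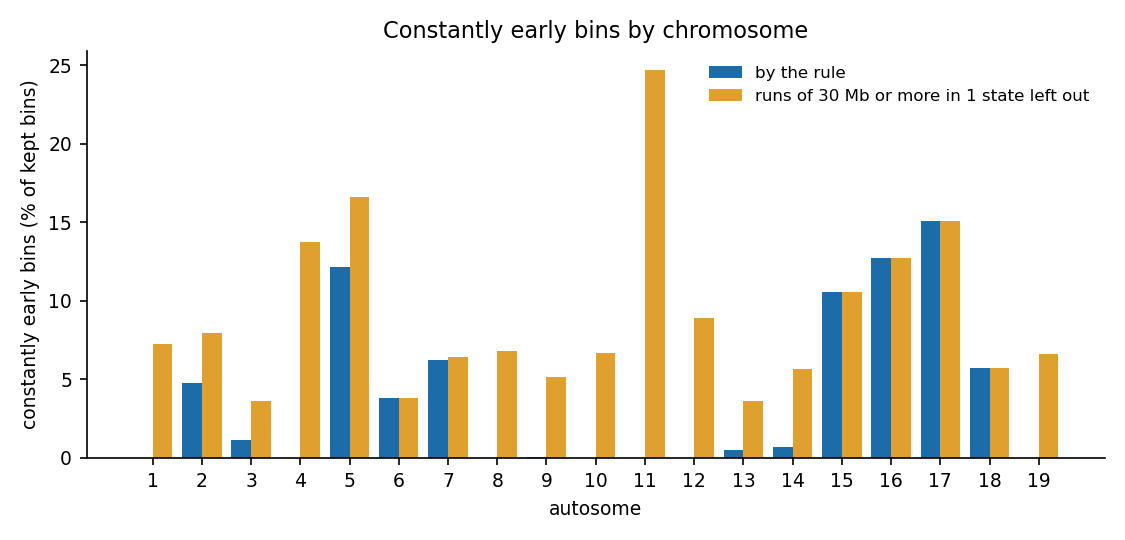
Constantly early bins as a percent of the kept bins of each autosome, by the rule (blue) and with calls in single-state runs of 30 Mb or more left out (orange). By the rule 7 chromosomes stand at 0 and chromosome 17 is highest at 15.1%; with the runs left out chromosome 11 is highest at 24.7%.

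Single 4-cell embryos set how many bins could be members. Of the 3608 bins that were early at the 8-cell stage and failed at the 4-cell stage, embryo 6 left 2263 unreplicated in at least 1 of its 2 mid-S cells. It was the only such embryo for 960 of them (26.6%). Embryo 13 followed with 938 unreplicated bins (177 through it alone, 4 mid-S cells), embryo 1 with 912 (258, 2 cells) and embryo 14 with 832 (170, 1 cell). The counts also went with the Repliscore. At 37.6 to 39.6, cells of embryos 11, 13 and 14 each left 362 to 832 of the 3608 bins unreplicated. Cells of embryos 11 and 13 at 55.2 to 61.9 left 109 to 174. Embryo 9, with 1 mid-S cell, left 28 unreplicated, none of them alone. For 1248 of the 3608 bins (34.6%), every unreplicated 4-cell call lay inside a long run. Without embryo 6, and with the minimum lowered by its 2 cells, 2021 bins met the rule. Leaving out any other embryo of either stage gave 1061 to 1319.

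On the members of chromosome 5 the same embryo gave no call. All 221 members of this chromosome were called in neither of its mid-S cells, so they rest on the other 16 cells at the 4-cell stage. One of the 18 mid-S cells carried a long unreplicated run elsewhere on chromosome 5. In all, 805 members were called in every 4-cell mid-S cell and 1027 in every 8-cell one.

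**Figure D2:**
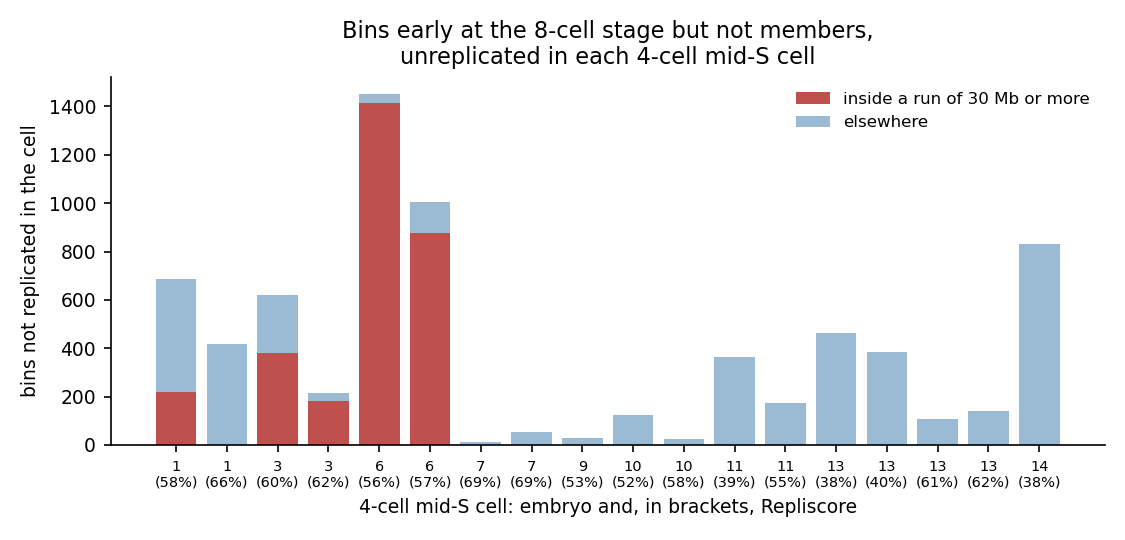
Bins that were early at the 8-cell stage but not members, counted where unreplicated in each of the 18 mid-S cells of the 4-cell stage; red, inside a single-state run of 30 Mb or more; blue, elsewhere. Both cells of embryo 6 are high and nearly all red, while the single cell of embryo 14 is high with no red.

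The members were not scattered singly. They formed 232 domains of adjacent bins, and 1009 members (95.1%) had a member next to them. The median domain was 240 kb long (quartiles 160 and 480 kb), the mean was 366 kb and the longest spanned 2 Mb. Single bins made up 52 domains. The 84 domains of 5 or more bins held 755 members (71.2%), and the 14 domains of 1 Mb or more held 234 (22.1%). With the long runs left out there were 573 domains, again with a median of 240 kb, and the longest spanned 2.48 Mb. The domain lengths therefore moved far less than the number of domains.

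The longest domain was chr5:135600001-137600000, with 25 bins. Next came chr16:3680001-5280000 and chr18:34400001-36000000, with 20 bins each, and chr5:123520001-125040000 with 19. Chromosome 15 held chr15:80480001-81920000 (18 bins) and chr15:84640001-86000000 (17 bins). The others of the 10 longest were chr17:29440001-30800000 (17 bins), chr5:107920001-109200000 (16 bins), chr16:31840001-33040000 (15 bins) and chr5:122160001-123280000 (14 bins). Chromosome 5 thus held 4 of the 10, all on calls from which embryo 6 is missing.

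Domains in turn lay close together. Between neighbouring domains of a chromosome the median gap was 0.8 Mb (0.96 Mb with the long runs left out), and 36 of the 220 gaps were a single bin. Joining domains at most 1 Mb apart gave 115 clusters, of which the 10 with most members held 31% of all members. The largest, chr5:120880001-126160000, held 55 members among 66 kept bins in 5 domains. The second, chr17:26640001-32400000, held 48 among 72 in 7 domains. The third, chr5:134480001-138640000, held 47 among 52 in 5 domains, so that 90.4% of its kept bins were constantly early. Along the chromosomes, with the first kept bin at 0 and the last at 100, the median position was 67.8 for members and 50.4 for the kept bins of the same chromosomes. With the long runs left out it was 64.3. The 221 members of chromosome 5, uncalled in the mid-S cells of 4-cell embryo 6, all lay in domains at positions 60 to 99. Domains of chromosome 16 lay from 1 to 95. The median position without chromosome 5 was not computed.

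A domain ended where a neighbouring bin fell short of the threshold at either stage or both, or was not kept. Of 464 domain sides, the adjoining bin failed only in 4-cell embryos on 221, only in 8-cell embryos on 176 and in both on 65, and 2 adjoined a bin that was not kept. The median adjoining bin was replicated in 94.4% of called 4-cell mid-S cells and in 92.9% of called 8-cell ones. As medians over all adjoining bins, these values include bins that passed at the stage in question. How many borders were set by a single cell was not counted.

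**Figure D3:**
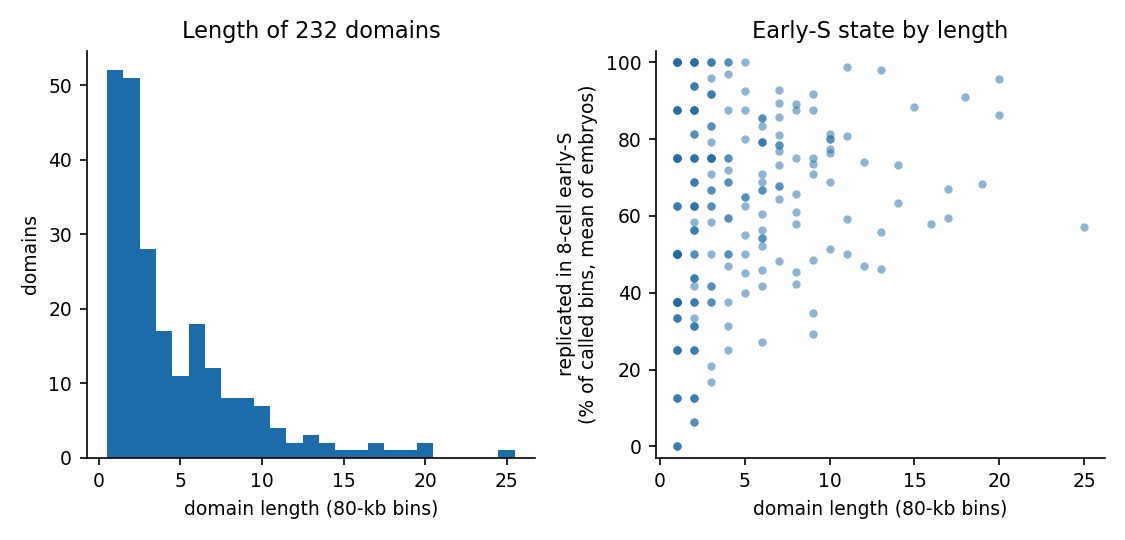
Left, number of domains by length in 80-kb bins; right, percent of each domain's called bins replicated in 8-cell early-S cells (mean of the embryos) against its length. Short domains are the most frequent and span 0 to 100% in early-S, while the domains of 1 Mb or more have a median of 67.7%.

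The early-S cells took no part in the choice of members and show how soon the members are copied. At the 8-cell stage the members stood at 64.9% replicated in embryo 3, 64.8% in embryo 8, 89.4% in embryo 10 and 52.4% in embryo 11. The other kept bins of the same embryos stood at 15.1%, 13.2%, 24.3% and 11.8%. The sets did not overlap, and embryo 10, whose cell was furthest into S phase with a Repliscore of 26.7, was highest in both. The members were ahead by 51.8 percentage points ± 10.1 (SD, n = 4 embryos), in 4 of 4 embryos. The two-sided exact sign-flip test gave p = 0.125, the smallest that 4 embryos allow. Embryos 8 and 10 had given no mid-S cell to the choice, and there the lead was 58.4 points. With calls in long runs left out of the early-S cells, the lead was 53.7 points ± 8.74 (SD, n = 4).

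Bin by bin, 801 of the 1053 members called in at least 4 of the 6 early-S cells (76.1%) were replicated in 50% or more of them, against 17.4% of all kept bins. Among the 901 members called in all 6 cells, 231 (25.6%) were replicated in every one, against 5.13% of all bins so called. At the other end, 24 members (2.28%) were replicated in none, against 65.4% of all kept bins. These members were uncopied in early-S cells of the 8-cell stage and copied in all but at most 1 of the mid-S cells.

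**Figure D4:**
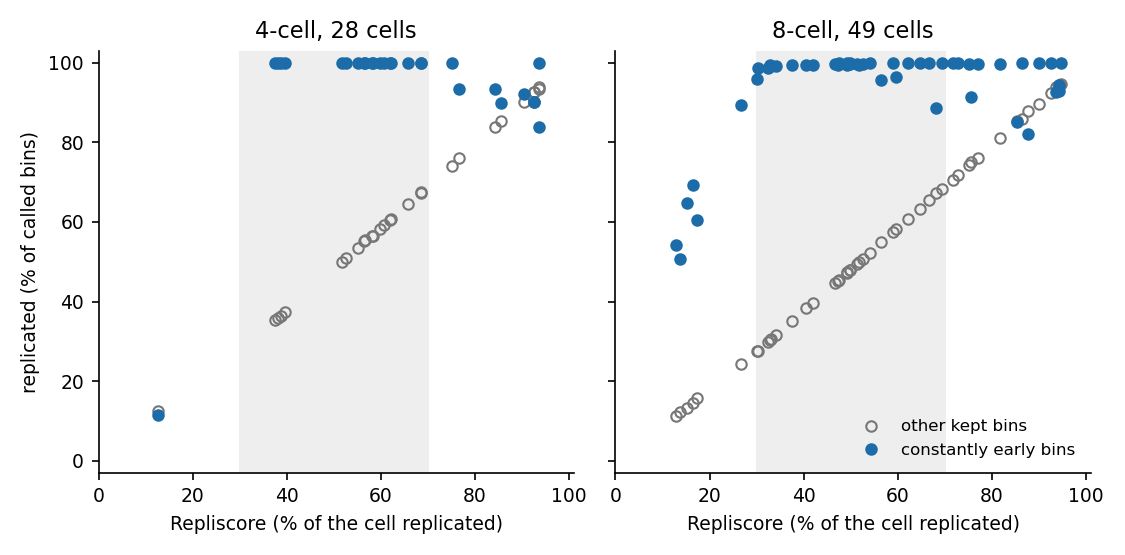
Percent of called bins replicated in each cell against its Repliscore, for constantly early bins (filled) and the other kept bins (open); the grey band, 30 to 70%, marks the cells that chose the members. In the 6 early-S cells of the 8-cell stage the members lie between 50.6% and 89.4%, and in the single early-S cell of the 4-cell stage they lie at 11.5%, below the other bins.

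The next earliest bins trailed the members at the 8-cell stage. The 6759 bins replicated in at least 80% of called mid-S cells at both stages, members aside, stood at 53.2% ± 13.6 in early-S (SD, n = 4 embryos), which put the members ahead by 14.7 points ± 3.67 (4 of 4 embryos, two-sided exact sign-flip p = 0.125, the smallest possible). With the long runs left out of the rule as well, that lead was 26.9 points ± 2.89. Of the 6721 next-class bins with enough calls, 3878 (57.7%) were replicated in 50% or more of the early-S cells. The 3608 bins that were early at the 8-cell stage alone stood at 62.5% ± 14. The 681 that were early at the 4-cell stage alone stood at 45.2% ± 10. The former set lay closer to the 67.9% ± 15.5 of the members.

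Within domains the middle was ahead of the rim. In the 84 domains of 5 or more bins, the 419 bins at least 2 bins away from either end stood at 73.9% ± 14.6 and the 168 end bins at 61.6% ± 16.7 in 8-cell early-S cells, with the 168 bins next to the end bins in neither set. The difference was 12.3 points ± 3.34 (4 of 4 embryos, two-sided exact sign-flip p = 0.125, the smallest possible). Domains of 5 or more bins were ahead of those of 1 or 2 bins by 12.5 points ± 5.65, again in 4 of 4 embryos with the same p from the exact test. With the long runs left out of the rule too, both differences were 17.8 points. When every called mid-S cell had to be replicated, centre minus edge was 7.64 points, and long minus short was 4.94 points with an exact sign-flip p of 0.25, so not every embryo kept its sign. With a mid-S window of 40 to 60% they were 19 and 23.8 points. Across the 232 domains, Spearman's rho between length and early-S percent was 0.204, given as a description because domains share cells.

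The profile across the borders of these longer domains fell in steps on the outside. Bins ending 240 kb, 160 kb and 80 kb outside a border stood at 21.7%, 32.1% and 43%, the first bin inside at 61.6% and the fifth inside at 74.6%. The first position inside held 168 bins and the fifth 62, as shorter domains do not reach that far in. The rise inward thus mixes distance from the border with domain length. From 320 kb outward the level stayed between 13.3% and 18.7%, close to the 16.1% ± 5.63 of all other kept bins. The transition from the background to the domain interior therefore covered a few bins on each side.

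**Figure D5:**
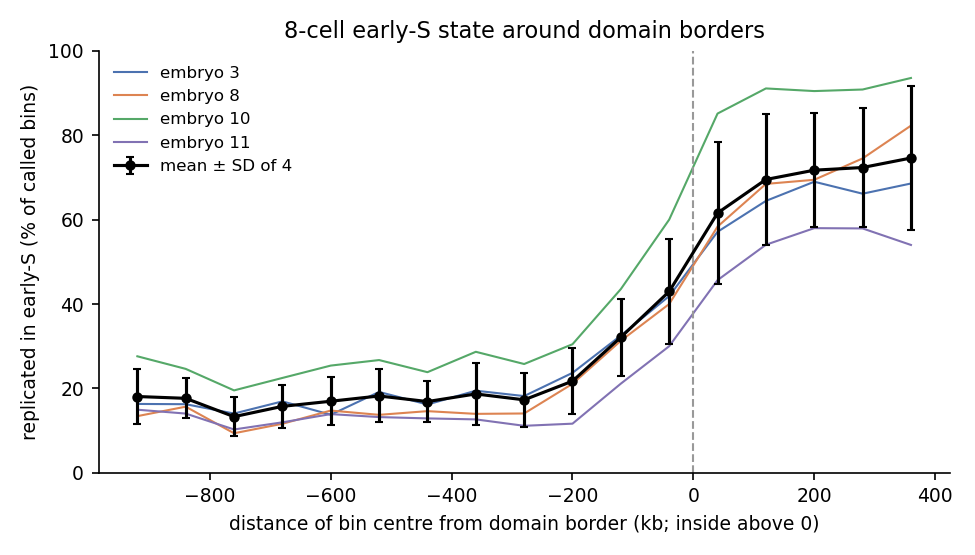
Percent of called bins replicated in 8-cell early-S cells against distance from the border of domains of 5 or more bins (kb, inside above 0); coloured lines, 4 embryos; black, their mean with SD. All 4 embryos climb from outside to inside, and embryo 10 is highest throughout. The first position inside holds 168 bins and the fifth 62, from longer domains only.

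Single domains differed widely in how early they were. Of the 129 domains of 3 or more bins, 106 were at 50% or more in 8-cell early-S cells, 6 were at 100% and none at 0. The lowest was chr17:45440001-45680000, at 50%, 0%, 0% and 16.7% in embryos 3, 8, 10 and 11. Next came chr2:31040001-31280000, at 50%, 0%, 33.3% and 0%. The domain chr16:20720001-21040000 was fully replicated in embryo 10 and at 0% in the other embryos. The remaining 2 of the 5 lowest were chr5:138160001-138640000, with a mean of 27.1%, and chr16:91680001-92400000, with a mean of 29.2% ± 8.33. The latter lay between 22.2% and 38.9% in every embryo.

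The 5 domains that were highest as a mean of both stages lay on chromosomes 2 and 6, which the only 4-cell early-S cell had largely replicated. They were chr2:118880001-119520000, chr2:91440001-91680000, chr2:120800001-121600000, chr6:87680001-88240000 and chr2:5600001-6160000, each at 100% in that cell and between 76.8% and 87.5% at the 8-cell stage, where the chromosome 6 domain was called in 3 of the embryos. By the 8-cell stage alone, a ranking added after the values were seen, chr15:75920001-76320000 and chr7:87120001-87440000 were at 100% in all 4 embryos. So were chr17:71760001-72080000, chr2:31840001-32080000 and chr7:133600001-133840000. The chromosome 2 domain among these begins less than 1 Mb beyond the second lowest domain, so neighbouring domains could differ.

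The longest domains were not uniformly the earliest. In chr18:34400001-36000000 the 4 embryos lay at 97.5%, 95%, 100% and 90%, and in chr16:3680001-5280000 at 90%, 85%, 90% and 80%. In the longest of all, chr5:135600001-137600000, they lay at 36%, 84%, 100% and 8%. The embryos thus differed far more on the chromosome 5 domain than on the former pair. Some early-S cells of embryos 3 and 11, the low ones there, held long unreplicated runs. Outside such runs lay 891 of 1021 member calls in a cell of embryo 3 and 865 of 970 in a cell of embryo 11. Whether the runs account for the contrast was not tested. Among chromosomes with over 20 members, the mean early-S level of members ran from 54.1% on chromosome 5 to 82.3% on chromosome 18. With calls in long runs left out, it was 55.1% on chromosome 5 and unchanged on chromosome 18.

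The single early-S cell of the 4-cell stage (embryo 8, Repliscore 12.6, earlier batch) showed no such lead over the autosomes as a whole. It had replicated 122 members, or 11.5% (95% exact binomial interval 9.64 to 13.6%, over bins, which are not independent), and 12.7% of the other kept bins. Long unreplicated runs covered 18234 of its autosomal bins, and outside them the members stood at 23.3% and the other kept bins at 33.3%. Its replicated bins lay mostly on chromosomes 2, 6 and 10, at 56%, 60.3% and 75.4%, while each of the other 16 autosomes stood at 3.67% or less. On chromosomes 2, 6 and 10 it had replicated 99 of 175 members. Chromosome 2 members stood at 58.1% against 55.9% for the rest of that chromosome, and chromosome 6 members at 54.3% against 60.5%. Chromosome 17 members stood at 10.4% against 2.47%. Of the 12 chromosomes with members, the members were above the rest on 5, below on 4 and level on 3. Over all autosomes the lead was -1.15 points, 53 points below that of the 8-cell embryos (exact permutation of 1 and 4 embryos, two-sided, p = 0.2, the smallest possible). With 1 cell, stage, batch and this cell's own pattern cannot be told apart.

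In late-S cells the members were near the ceiling on average, though not in all cells. The 4-cell embryos averaged 93.2% ± 3.96 (SD, n = 5) over the members, against 85.6% ± 8.45 over the other kept bins. The 8-cell embryos averaged 96.2% ± 5.72 (SD, n = 8), against 84.8% ± 8.42. In some cells the members trailed the other kept bins. At the 4-cell stage the lead was -2.51 and -2.56 points in cells of embryo 4 and -10.2 in a cell of embryo 5. At the 8-cell stage it was -0.466 and -5.88 in cells of embryo 3, -1.06 in embryo 9 and -1.58 in embryo 10. In the other late-S cells the lead was above 0. With calls in long runs left out, the members averaged 99.1% ± 1.41 and 90% ± 15.6 and the other bins 82.2% ± 8.2 and 73.4% ± 25.8. The 8-cell averages include the only late-S cell of embryo 10, which kept 98 of 640 member calls. There the members stood at 58.2% and the other bins at 11.2%. At the 4-cell stage 339 members (32%) were unreplicated in at least 1 late-S cell, against 50.7% of all kept bins. They lay unevenly over the chromosomes. In these cells chr2:118880001-119520000 stood at 55.6% and chr6:87680001-88240000 at 77.8%, against 100% for chr16:3680001-5280000 and chr18:34400001-36000000. Outside long runs the count of members unreplicated in at least 1 4-cell late-S cell was 14 (1.32%), against 32.7%. Few member calls remained in some of these cells: 30 of 1061 and 0 of 1059 in embryo 4, and 30 of 840 and 37 of 998 in embryo 5. The low count therefore rests in part on missing calls. At the 8-cell stage the count was 489 (46.1%) against 67.2%, and outside long runs 374 (35.2%) against 61.4%.

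In a few 8-cell cells the members stood lower than in the others. In one late-S cell of embryo 3, with a Repliscore of 87.7, the members stood at 82.1% and the bins constantly late at both stages at 93.8%. That cell held no long run. Among mid-S cells, 357 of 29672 member calls at the 8-cell stage were unreplicated, and 121 of these came from a single cell of embryo 6, where members stood at 88.6%. Cells of embryos 11, 5 and 1 followed with 45, 43 and 39 unreplicated members, those of embryo 11 all inside long runs. The other mid-S cells each had 14 or fewer.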

How the data were processed

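Single blastomeres of 77 cells were profiled, and the deposited binary files hold 1 state per cell and 80-kb bin (mm9, per the submitters' processing notes): 1, -1 or 0, values of no unit, deposited by the authors. In each cell the percent of called autosomal bins with state 1 matched the Repliscore, a percent deposited by the authors, to within 4.98e-09 points. State 1 was therefore taken to mean replicated, -1 unreplicated and 0 uncalled. The noise score and quality flags deposited by the authors were not used. How reads were aligned and states called is not given in the sources used here. Calls from a model that smooths along the chromosome lengthen runs and domains; whether this one does was not tested.

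Members followed the rule given above, and domains are runs of adjacent members. Cell values were averaged per embryo. Leads were tested by two-sided exact sign-flip tests over embryos and stages by a two-sided exact permutation test of embryos. Embryos were the units of these tests, and each main p-value was the smallest that their number allows. The domains named are the 10 longest and, among those of 3 or more bins, the 5 highest and 5 lowest in early-S as a mean of both stages, and chromosomes the 3 highest and 3 lowest; other names were chosen after their values were seen. The members, comparisons and lists were chosen with earlier results of these data known. The rule was run on simulated data with 408 planted bins among 30890, of which 100% were found with 0 others. The planted bins were set far earlier than all others, with no bins between and no long runs. Full recovery was thus fixed by the setting, which checks the code and not how well the rule works on these data. Alternatives were another threshold, mid-S window, call minimum, batch, bridging of gaps and each embryo left out, and long runs left out, added after seeing the data. Genes and sequences were not analysed here. Tools were scipy 1.17.1, numpy 2.4.6, Python 3.11.15, matplotlib 3.10.9 and pandas 2.3.3.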

Additional observations from a re-analysis of the deposited data

Results flagged for a closer look

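Of 28 sets of 4 to 10 embryos examined, 4 held an embryo whose gap to the nearest other was large against the range of the set. For independent, normally distributed values chance gives this in about 1 of 20 sets. Many of these sets hold bounded percents from the same embryos, so that rate need not apply here. The 8-cell mid-S value of the members was lowest in embryo 6, at 94.2%. The 8-cell late-S value was lowest in embryo 3, at 83.5%. Among bins early at the 8-cell stage, 960 failed at the 4-cell stage through embryo 6 alone, far more than through any other embryo. The domain chr16:20720001-21040000 was at 100% in early-S in 8-cell embryo 10 and at 0% in the other embryos.

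The early-S lead of the members was -1.15 points in the 4-cell embryo and above 0 in all 4 8-cell embryos. With 1 embryo against 4 this difference could not reach 0.05, and its exact permutation p was 0.2, the smallest possible. Chromosome X lies outside the comparisons, and 27 of its 1892 kept bins (1.43%) met the rule.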

How the results depend on the processing

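The number of constantly early bins, 1061 by the rule, was 3324 at a threshold of 90%, 704 when every called mid-S cell had to be replicated, 1838 with a mid-S window of 40 to 60%, 2367 without cells holding an autosome in 1 state, 1663 with 4-cell cells of the later batch only, and 2817, 2643 and 2606 with runs of at least 20, 30 and 40 Mb left out. Domains, 232 by the rule, numbered 610 at 90%, 519 without cells with a one-state autosome, and 607, 573 and 572 without the runs. Leaving out 1 embryo gave 1061 to 2021 bins and 227 to 469 domains, both highest without 4-cell embryo 6. The median length stayed at 240 kb in each of these embryo settings. It was 160 kb when every called mid-S cell had to be replicated. At a threshold of 90%, with the window of 40 to 60% and with 4-cell cells of the later batch only, it was 320 kb.

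Over all alternatives, the 8-cell early-S lead lay between 39 and 59.7 points and the lead over the next class between 10.5 and 27.7 points. Centre minus edge lay between 7.64 and 20.7 points and long minus short between 4.94 (exact sign-flip p = 0.25, every called cell replicated) and 23.8 points (window of 40 to 60%). No mean 8-cell early-S difference changed sign under any of them. Leaving out 1 early-S embryo gave 47.4 to 55.5 points for the lead, 13.5 to 15.9 over the next class, 11 to 13.7 for centre minus edge, 10.1 to 14.7 for long minus short, and 48.5 to 56.7 for the stage difference. The 4-cell lead was -3.75 when every called cell had to be replicated, -4.92 with the window of 40 to 60%, -3.63 with bins called in every mid-S cell, and -7.65 and -11.6 without runs of 30 and 40 Mb; the cause was not tested. It could not be computed without one-state cells or in the later batch alone, since the only cell falls away. Genes were not analysed here. No paired analysis was possible because no embryo was sampled at both stages. The number of embryos with early-S cells, 1 and 4, limits every early-S statement.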
